A study of Mus musculus with 2 samples.

Results

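The cells described here were CD8 T cells from mouse melanoma tumours that carried transcripts of both Tcf7 and Pdcd1. A cell was a member if it held at least 1 UMI (unique molecular identifier, standing for 1 captured RNA molecule) of Cd8a or Cd8b1, at least 1 of Pdcd1, at least 1 of Tcf7 and at most 2 of Xcl1, with Cd4, Foxp3, Mki67, Top2a and Havcr2 all at 0. Of 10713 cells that could be assigned to 1 mouse, 6239 were CD8 cells, 4454 passed the part of the gate that asks nothing of Tcf7 or Pdcd1, and 335 were Tcf7+ Pdcd1+. They are set beside 334 Tcf7- Pdcd1+ cells and 3016 Tcf7+ Pdcd1- cells that passed the same gate. The remaining 769 cells of the gate held neither transcript. Outside the gate were 62 Pdcd1+ cells with 3 or more Xcl1 UMIs, 36 of them with Tcf7. The 10 genes of the gate chose these cells, so their own levels are given as a description and were not tested.

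The study asked how a gut bacterium, Lactobacillus reuteri, changes T cells in the melanomas of C57BL/6J mice. Tumour cells were enriched for the T cell antigen CD90.2, stained with a hashtag antibody for each mouse and sorted. The labels speak both of CD3+ T cells and of a CD8+ sort. Hashtag names gave 4 mice as LR, read here as L. reuteri, and 4 as PBS, read here as the mice given no bacterium, and all 8 bore melanomas; no label states either reading outright. Once sorted, the LR mice were pooled with each other and so were the PBS mice, and everything ran on 1 lane as 1 gene expression library, so handling after the sort cannot be told apart from treatment. The mouse was the replicate throughout, and no cell barcode occurred more than once in the library.

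Tcf7 (ENSMUSG00000000782, chromosome 11, 52252371 to 52283014, minus strand, GENCODE M21 on GRCm38) encodes TCF1, the DNA-binding partner of beta-catenin that maintains naive, memory and stem-like T cells. Pdcd1 (ENSMUSG00000026285, chromosome 1, 94038305 to 94052553, minus strand) encodes PD-1, an inhibitory receptor that T cells express after antigen stimulation and keep in chronic infection and tumours. In both settings, CD8 cells that express TCF1 and PD-1 together are known as stem-like or progenitor exhausted cells. They renew themselves, give rise to TCF1-negative cells with effector molecules and inhibitory receptors such as TIM-3 (Havcr2), and respond to checkpoint blockade. The surface receptor Slamf6 and the transcriptional inhibitor Id3 are further markers of that state.

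Members came from every mouse. LR mice 1, 2, 3 and 4 gave 57, 35, 15 and 18 members, and PBS mice 6, 7, 8 and 9 gave 24, 54, 40 and 92. The Tcf7- Pdcd1+ cells numbered 52, 44, 21 and 59 in the LR mice and 36, 16, 34 and 72 in the PBS mice. Members had a median of 3747 UMIs and 1554 genes per cell, Tcf7- Pdcd1+ cells 3863.5 and 1672, and Tcf7+ Pdcd1- cells 3544.5 and 1412. With every cell thinned to 2000 UMIs, the median number of genes was 992 in 301 members, 1033 in 278 Tcf7- Pdcd1+ cells and 934 in 2667 Tcf7+ Pdcd1- cells. Scrublet, which scores barcodes as likely doublets, marked 37 members (11%), 20 Tcf7- Pdcd1+ cells (5.99%) and 231 Tcf7+ Pdcd1- cells (7.66%).

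Pdcd1 transcripts were sparse in the members. Of the 335 cells, 218 held a single Pdcd1 UMI, 42 held 2 and 75 held 3 or more. Tcf7 was read from 1 UMI in 130 members, from 2 in 75 and from 3 or more in 130. As a measure of free RNA, 19 cells with at least 3 myeloid marker UMIs and no Cd3 transcript were examined: none held Pdcd1, for which the exact 95% interval reaches 17.6%, and 2 held Tcf7, at a median of 8461 UMIs. Among 2112 cells of the gate with UMIs of both Lef1 and Ccr7, genes of naive and central memory T cells, 136 held Pdcd1. That share was 6.44% (exact 95% interval 5.43 to 7.57%), at a median of 3680.5 UMIs. Of all 3351 cells of the gate with Tcf7, 335 held Pdcd1. These intervals cover counting error only. How many members with a single Pdcd1 UMI owe it to free RNA was not tested.

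Levels are given as CPM, the UMIs of a gene per 1000000 UMIs of all genes summed over the cells of a mouse and population, and as mean ± SD over mice (n = 8) unless stated. Of the 4 genes that mark the state, Tcf7 stood at 538 ± 97.4 CPM and Pdcd1 at 501 ± 140 CPM in the members, by the choice of cells. In the Tcf7+ Pdcd1- cells Tcf7 was 743 ± 67.0 CPM, and in the Tcf7- Pdcd1+ cells Pdcd1 was 800 ± 132 CPM. Slamf6 and Id3 were not part of the gate. Slamf6 ranged over mice from 55.6 to 122 CPM with a median of 87.5 in members, from 10.6 to 53.3 with a median of 27.9 in Tcf7- Pdcd1+ cells, and from 68.7 to 114 with a median of 98.6 in Tcf7+ Pdcd1- cells. No member sample of Slamf6 overlapped the Tcf7- range, while the members and the Tcf7+ Pdcd1- cells overlapped almost fully. Id3 came to 86 UMIs over 335 members and 6 UMIs over 334 Tcf7- Pdcd1+ cells, and was higher in the members in 8 of 8 mice. Its member levels were uneven: 155 CPM in LR mouse 3 and 200 CPM in PBS mouse 6, against 11.1 to 74.3 CPM in the other 6 mice. The markers Slamf6 and Id3 therefore marked the members off from the Tcf7- Pdcd1+ cells but not from the Tcf7+ Pdcd1- cells, where Id3 was 69.7 ± 18.8 CPM.

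**Figure D1:**
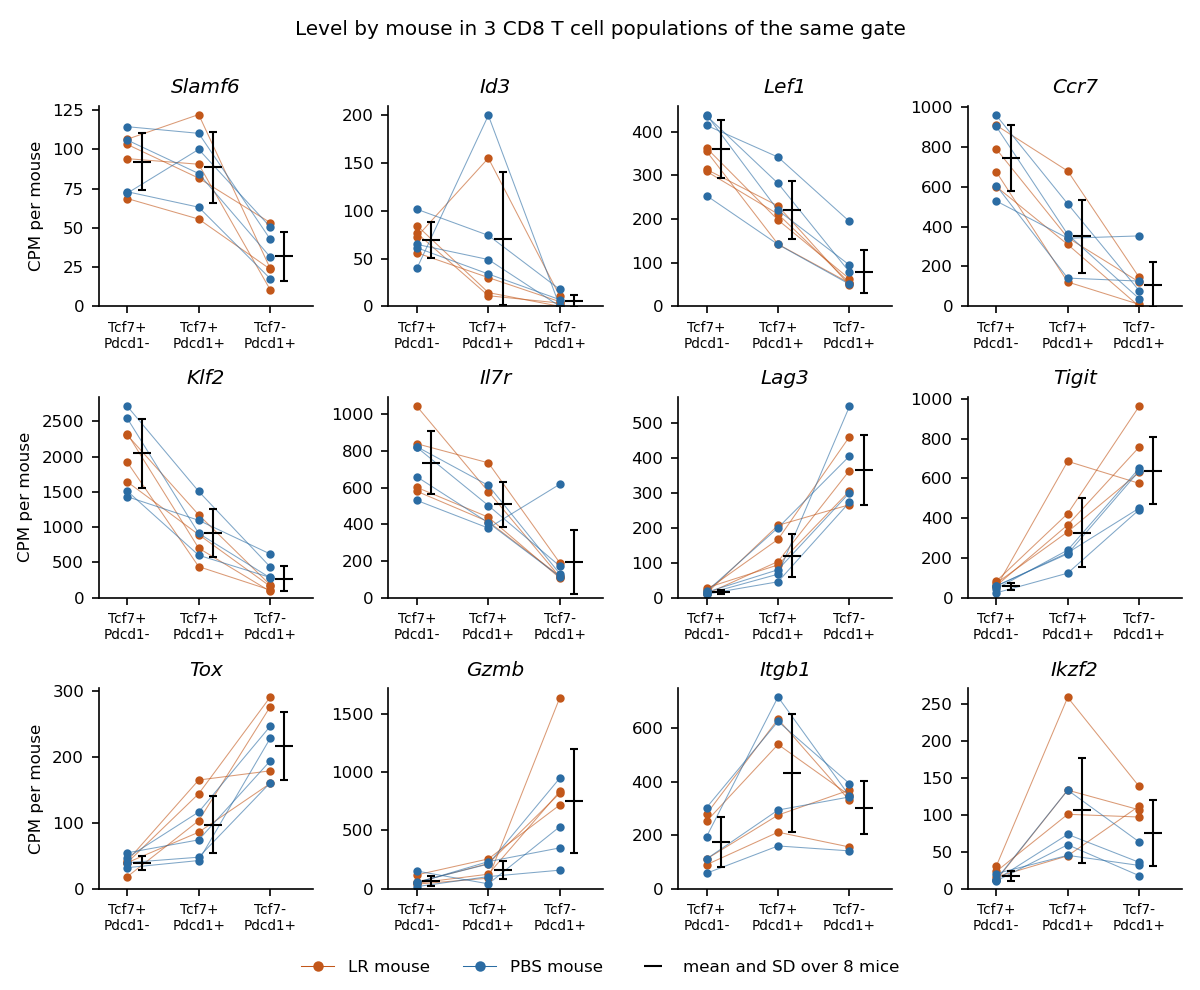
Levels of 12 genes (y axis, CPM, linear from 0) in the Tcf7+ Pdcd1-, Tcf7+ Pdcd1+ and Tcf7- Pdcd1+ cells of each mouse; lines join the populations of 1 mouse, orange for LR and blue for PBS, and black bars give the mean and SD over 8 mice, cut at 0. Lef1 and Klf2 fell and Lag3 rose from left to right in 8 of 8 mice, Slamf6 and Id3 were low in the Tcf7- cells, and the mean of Itgb1 was highest in the Tcf7+ Pdcd1+ cells.

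The first comparison asked how the members differed from the Tcf7- Pdcd1+ cells of the same mice. Members held more RNA of the genes of naive and central memory T cells and of several stem-like genes, and less of effector molecules, chemokines and factors of exhausted cells. Il7r, the interleukin-7 receptor chain that supports survival, ranged from 379 to 735 CPM over the mice with a median of 470 in members, and from 107 to 618 with a median of 123 in Tcf7- Pdcd1+ cells. Members were above in 7 of 8 mice, and the ranges overlapped through PBS mouse 7, whose 16 Tcf7- Pdcd1+ cells stood at 618 CPM while the other 7 mice lay at or below 189. Klf2, a transcription factor that keeps T cells quiescent and switches on S1pr1, ranged from 438 to 1506 CPM with a median of 901 in members and from 88.1 to 618 with a median of 230 in Tcf7- cells. It was higher in members in 8 of 8 mice. In edgeR's quasi-likelihood test with mouse as a block and Benjamini-Hochberg adjustment over 2430 genes, Il7r rose by a log2 ratio of 1.75 ± 0.33 (SE, adjusted p = 0.00794) and Klf2 by 1.98 ± 0.24 (adjusted p = 0.000442). These p-values compare cells that were chosen by the gate genes of the same cells.

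In that fit 236 of 2430 genes were higher in members (9.71%) and 187 were lower (7.7%), together 17.4% of those tested, at an adjusted p of 0.05 or less. Scaled by library totals alone, the split was 195 higher and 268 lower. The filter on low counts asks for enough UMIs in 8 samples, the number in 1 population. A gene can therefore enter the fit through the population where it is high. S1pr1 (31.9 CPM) and Satb1 (46.5 CPM) were scarce over all Tcf7- cells, and Irf8, Prf1 and Ccl3 were scarce in members. For these genes the log2 ratio of the main fit is given without a p. All 10 tested genes of the 15 naive and central memory genes were higher, with a median log2 ratio of 2.0 against -0.0033 over all genes tested. Besides Il7r and Klf2 they included S1pr1 (log2 ratio 2.06), the receptor that guides exit from lymphoid tissue, and Lef1 (1.63, adjusted p = 2.87e-10), the close relative of TCF1. They also included the chemokine receptor Ccr7 (2.02, adjusted p = 0.0167), which directs cells to lymph nodes. The call for Ccr7 was lost without LR mouse 1, PBS mouse 8 or PBS mouse 9, with adjusted p from 0.0577 to 0.0631 and a log2 ratio of 1.80 to 1.94. Most of these genes are also the ones by which Tcf7+ T cells of any kind are recognised, and the list was chosen with earlier results of these data known.

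Of 13 stem-like genes, 5 passed edgeR's filter on low counts, and 4 of them were higher in members: the chromatin organiser Satb1 (log2 ratio 1.89), Emb, which encodes the cell surface protein embigin (1.68, adjusted p = 1.59e-08), Gpr183 and Ltb. The list's median log2 ratio was 0.90. The call for Ltb was lost without the mouse block (adjusted p = 0.0591) and among cells with 2 or more Pdcd1 UMIs (adjusted p = 0.0787). Emb was 631 ± 206 CPM in members and 213 ± 57.4 in Tcf7- cells, higher in 8 of 8 mice with no overlap of the ranges. Slamf6, Id3, Myb and Bach2 were too sparse for the filter. Id3 (86 UMIs in members, 6 in Tcf7- cells) and Myb (57 and 7) reach a lower limit of 10 UMIs through the members alone, so the values that follow for them describe genes admitted by the group in which they are high. Their log2 ratios are given without a p. In the same fit over genes with at least 10 UMIs in all, Slamf6 was higher in members by 1.43 ± 0.26 (adjusted p = 2.13e-06) and Id3 by 3.56 ± 0.46. Myb, a transcription factor that sustains stem-like cells, was higher by 2.71 ± 0.52. Bach2, which restrains effector differentiation, was higher by 1.48 ± 0.35 (adjusted p = 0.000743). Cxcr5, the follicular homing receptor that marks such cells in chronic viral infection, came to 11 UMIs in members and 2 in Tcf7- cells and did not pass (adjusted p = 0.455). None of the 6 tested genes of the TCF and Wnt pathway list, out of 19 in the matrix, was called in either direction, and the list's median log2 ratio was 0.05.

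Effector and exhaustion genes were lower in the members. Of 12 tested factors of exhausted and effector cells 9 were lower and none higher, with a median log2 ratio of -0.74. Tox, the factor that establishes the exhausted state, ranged from 42.9 to 165 CPM with a median of 94.7 in members and from 160 to 291 with a median of 211 in Tcf7- cells. It was lower in members in 8 of 8 mice, and the ranges touched only between 160 and 165 CPM. Tox fell by 1.10 ± 0.18 on the log2 scale (adjusted p = 5.43e-06). Irf8 fell by 1.32 and Bhlhe40, a factor induced by T cell receptor signals, fell by 1.13 (adjusted p = 2.93e-09 for Bhlhe40). Lag3, an inhibitory receptor, was 120 ± 62.3 CPM in members and 365 ± 100 CPM in Tcf7- cells, and its ranges did not overlap. Lag3 fell by 1.69 ± 0.20 (adjusted p = 1.22e-06), Tigit by 1.01 ± 0.15 (adjusted p = 4.81e-05) and Ctla4 by 0.45 ± 0.14 (adjusted p = 0.0144), and the other 4 tested of the 13 inhibitory receptors in the matrix were not called. The call for Ctla4 was lost without LR mouse 2 or PBS mouse 8, with adjusted p of 0.0912 and 0.0709. It was also lost by DESeq2 (adjusted p = 0.17), without the mouse block (0.194), after thinning before the gate (0.389) and among cells with 2 or more Pdcd1 UMIs, where the log2 ratio was -0.07 (0.894). Among those cells Irf8 stood at -0.67 and was not called either (adjusted p = 0.223).

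The cytotoxic molecules followed the same direction, with 6 of 9 tested genes lower and 1, Lamp1, higher. Gzmb, which encodes granzyme B, ranged from 41.7 to 256 CPM with a median of 168 in members and from 159 to 1638 with a median of 768 in Tcf7- cells. Every mouse had less of it in its members, although the ranges overlapped between mice. Gzmb fell by 2.01 ± 0.35 (adjusted p = 0.00568), the pore-forming Prf1 by 1.79 ± 0.38 and Gzmk by 0.97 ± 0.16 (adjusted p = 3.53e-05). All 3 tested chemokines were lower in members: Ccl3 (fell by 2.76), Ccl4 (fell by 1.89, adjusted p = 0.0103) and Ccl5 (fell by 0.88, adjusted p = 0.00322). Among cells with 2 or more Pdcd1 UMIs none of the 3 chemokines was called (adjusted p = 0.204, 0.102 and 0.323), and without the mouse block Ccl5 was not (0.068). Ccl3 in members was 611 CPM in LR mouse 2 and 0 to 66.7 CPM in the other 7 mice. Ifng, the effector cytokine, fell by 1.27 ± 0.16 (adjusted p = 4.78e-08), from 239 ± 96.7 CPM in Tcf7- cells to 89.0 ± 50.9 CPM in members.

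Some further receptors and regulators were lower, while their lists were mixed: of 10 tested costimulators 3 were lower and 1 higher, of 9 cytokine receptors 2 and 1, and of 13 homing and adhesion genes 3 and 3. The costimulatory receptor Tnfrsf9 (4-1BB) fell by 1.45, the tissue-residency chemokine receptor Cxcr6 by 1.67, the interleukin-10 receptor chain Il10ra by 1.22 and the signalling regulator Rgs16 by 1.84, each lower in 8 of 8 mice (adjusted p of 1.19e-09, 1.3e-11, 2.4e-07 and 1.33e-06). Of 12 tested glycolysis genes 6 were lower and none higher, among them Gapdh (fell by 0.47, adjusted p = 0.0015) and Aldoa (fell by 0.57, adjusted p = 1.06e-05; log2 ratio -0.31 and adjusted p = 0.137 among cells with 2 or more Pdcd1 UMIs). Of 12 tested AP-1 and immediate early genes 6 were higher in members and 1 lower. Junb, an AP-1 subunit, was 1272 ± 251 CPM in members and 757 ± 178 CPM in Tcf7- cells (log2 ratio 0.81, adjusted p = 2.07e-10), and Fos rose by 0.74 (adjusted p = 0.000442). Socs3, an inhibitor of cytokine signalling, was higher in members by 1.85 ± 0.18 (adjusted p = 3.99e-11). AP-1 and heat shock genes can respond to tissue dissociation, whose part here was not tested; none of the 7 tested heat shock genes was called, and their median log2 ratio was 0.00045.

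**Figure D2:**
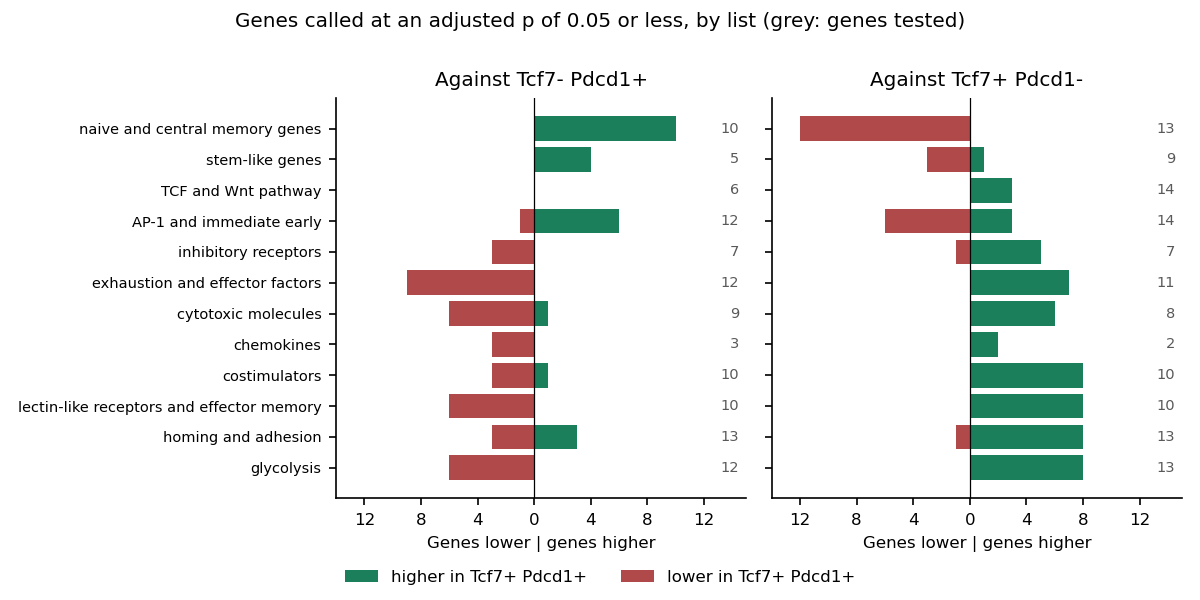
Numbers of genes per list called higher (green, to the right) or lower (red, to the left) in Tcf7+ Pdcd1+ cells at an adjusted p of 0.05 or less, against Tcf7- Pdcd1+ cells (left panel) and Tcf7+ Pdcd1- cells (right panel), with the number of genes tested in grey. Against the Tcf7- cells 10 naive and central memory genes were higher and 9 exhaustion and effector factors lower; against the Pdcd1- cells 12 naive and central memory genes were lower and 7 such factors higher.

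A cell is more likely to show a transcript when it is sequenced deeper, so the share of cells with a UMI was also compared after each cell had been thinned to 2000 UMIs. Among 19 genes tested this way, 14 passed an exact sign-flip permutation test over 8 mice after Benjamini-Hochberg adjustment over the 19, with a smallest possible raw p of 0.0078. Lef1 was seen in 34.7 ± 10.3% of members and 11.6 ± 8.61% of Tcf7- Pdcd1+ cells, higher in 8 of 8 mice (exact test, adjusted p = 0.0165). Slamf6 was seen in 16.3 ± 7.09% against 5.19 ± 4.20% (7 of 8 mice, adjusted p = 0.0270, exact test) and Id3 in 10.3 ± 9.66% against 0.466 ± 0.865% (6 of 8 mice, adjusted p = 0.0424, exact test). Without LR mouse 1 or PBS mouse 8, neither Slamf6 nor Id3 passed (adjusted p of 0.0540 and 0.0848, exact test), and Id3 also failed without LR mouse 3 or PBS mouse 6, 7 or 9.

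The same thinned cells showed the lower share of effector transcripts. Tigit was seen in 34.5 ± 15.2% of members and 63.0 ± 11.1% of Tcf7- cells, Lag3 in 17.5 ± 9.49% and 40.9 ± 7.87%, and Gzmb in 15.5 ± 7.70% and 42.5 ± 9.74%, each lower in 8 of 8 mice (exact test, adjusted p = 0.0165). Cd28, the costimulatory receptor that PD-1 blockade depends on, was seen in 34.2 ± 8.51% of members and 25.7 ± 6.37% of Tcf7- cells (6 of 8 mice, exact adjusted p = 0.0424). Its level did not pass in edgeR (log2 ratio 0.37 ± 0.15, adjusted p = 0.0986), and its share failed without Scrublet-marked cells (4.43 points higher, adjusted p = 0.376) and without LR mouse 1, 2 or 4 or PBS mouse 6, 7 or 8 (adjusted p = 0.0848, exact test). Unthinned, Cd28 was seen in 55.8% of all members and 47.0% of Tcf7- cells. Cxcr5, Ltb, Icos, Ahr and Crem did not pass at equal depth.

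**Figure D3:**
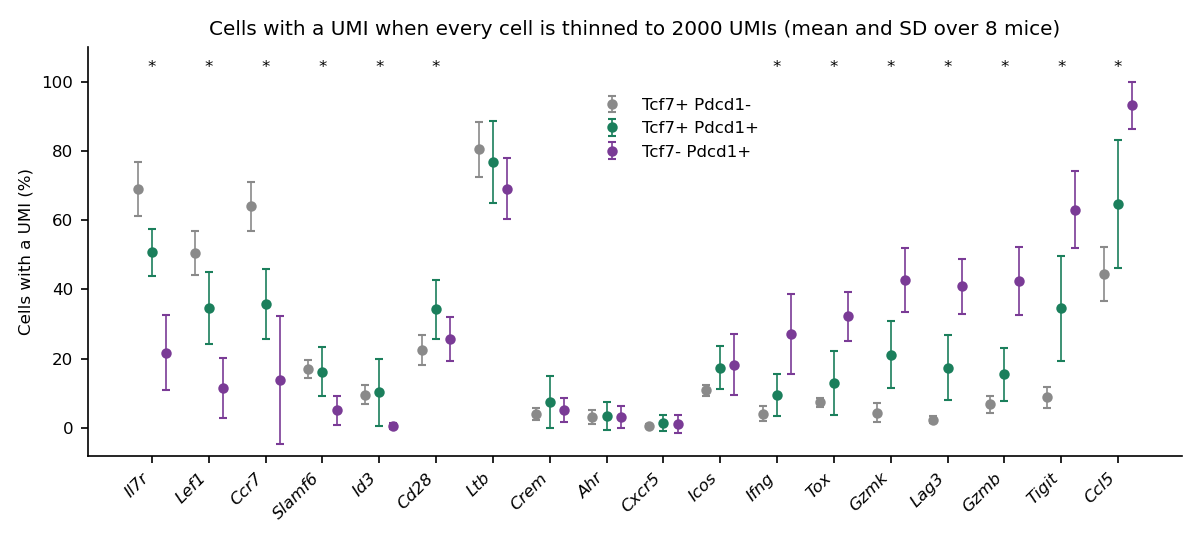
Share of cells with a UMI (y axis, %) of 18 of the 19 genes after thinning each cell to 2000 UMIs, as mean and SD over 8 mice, in Tcf7+ Pdcd1- (grey), Tcf7+ Pdcd1+ (green) and Tcf7- Pdcd1+ cells (purple); asterisks mark genes at which the last pair differed at an adjusted p of 0.05 or less. Lef1, Slamf6 and Id3 were seen in a larger share of members than of Tcf7- cells, and Tigit, Lag3, Gzmb and Ccl5 in a smaller one.

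The second comparison set the members beside the Tcf7+ Pdcd1- cells. It uses the same member samples as the first, so the results are not independent of each other. Members held more RNA of inhibitory receptors, costimulators and effector genes than these cells and less of naive genes, while their Slamf6 and Id3 were not distinguished from theirs. Tigit ranged from 123 to 685 CPM with a median of 285 in members and from 23.5 to 81.9 with a median of 57.8 in Tcf7+ Pdcd1- cells. The ranges did not overlap, and Tigit rose by 2.30 ± 0.13 (edgeR, adjusted p = 6.85e-22). Lag3 ranged from 45.1 to 207 CPM in members and from 9.81 to 27.7 in Tcf7+ Pdcd1- cells and rose by 2.65 ± 0.21 (adjusted p = 6.26e-17). Of 4352 genes tested, 373 were higher in members (8.57%) and 352 lower (8.09%), together 16.7%. Library totals, which moved the median of all genes by 0.10 on the log2 scale, gave 584 higher and 238 lower.

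Of 7 tested inhibitory receptors 5 were higher in members and 1, Vsir, was lower, with a list median of 1.39. Of 11 tested exhaustion and effector factors 7 were higher, including Tox (0.93, adjusted p = 0.000144), Eomes (1.15, adjusted p = 4.04e-07), Bhlhe40 (1.84, adjusted p = 1.63e-16) and Ikzf2 (2.37). Ikzf2 encodes Helios, a factor of regulatory T cells that activated CD8 cells also express. It was 106 ± 71.2 CPM in members, 17.1 ± 7.05 CPM in Tcf7+ Pdcd1- cells and 75.2 ± 44.2 CPM in Tcf7- Pdcd1+ cells, and the difference from the last group was not called (adjusted p = 0.123). Of 8 tested cytotoxic genes 6 were higher, led by Gzmk (2.24, adjusted p = 9.84e-05). Gzmb was higher by 1.43 (adjusted p = 0.0413), a call that was lost when any mouse but PBS mouse 6 was left out (adjusted p from 0.0704 to 0.14). Ifng rose by 1.5 and Ccl5 by 1.28 (adjusted p = 0.00227 for Ccl5).

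Most called costimulators, homing receptors and glycolysis genes were higher as well. Of 10 tested costimulators 8 were higher, among them Tnfrsf9 (2.03), Tnfrsf4, which encodes OX40 (1.89, adjusted p = 0.00536), and Cd28 (0.46, adjusted p = 0.00139). Of 13 tested homing and adhesion genes 8 were higher, including Ccr2 (1.63, adjusted p = 1.12e-08), the hyaluronan receptor Cd44 (1.28) and Cxcr6 (1.13, adjusted p = 9.86e-08), while Cd69 was lower. All 8 called genes among 10 tested effector memory and lectin-like receptor genes were higher, with Anxa2, a membrane-binding protein of antigen-experienced cells, at 389 ± 128 CPM in members and 73.2 ± 25.9 CPM in Tcf7+ Pdcd1- cells (log2 ratio 2.31, adjusted p = 7.8e-26). Of 13 tested glycolysis genes 8 were higher and none lower, and Gapdh rose by 0.74 (adjusted p = 1.01e-17). Of 15 respiratory chain genes 1 was called, Ndufb8, which was higher.

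Of 13 tested naive and central memory genes 12 were lower in members than in Tcf7+ Pdcd1- cells, with a list median of -0.84. Klf2 fell by 1.25 ± 0.19 (adjusted p = 0.00304), Ccr7 by 1.17 ± 0.21 (adjusted p = 0.00601) and Lef1 by 0.80 ± 0.10 (adjusted p = 1.99e-09). Il7r fell by 0.61 ± 0.08 (adjusted p = 1.37e-09) and the interleukin-6 receptor chain Il6ra by 1.22 ± 0.18 (adjusted p = 1.84e-07). Lef1, Klf2, Satb1 and S1pr1 stood between the other 2 populations in 8 of 8 mice, and Ccr7 and Il7r in 7 of 8. Of 14 tested AP-1 and immediate early genes 6 were lower and 3 were higher, the latter being the phosphatase genes Dusp1, Dusp2 and Dusp5. Of 9 tested heat shock and dissociation genes 4 were lower (Dnajb1, Hsph1, Hspe1 and Hspa8) and none higher, with a median log2 ratio of -0.29, and the part of dissociation in these differences was not tested. Slamf6 (log2 ratio -0.22 ± 0.14, adjusted p = 0.330) and Id3 (-0.35 ± 0.46, adjusted p = 0.703) were not called, although Id3 passed without PBS mouse 6 (-0.74, adjusted p = 0.0225). Of 14 tested TCF and Wnt pathway genes 3 were higher: Ezh2, the histone methyltransferase of Polycomb complex 2 (1.13, adjusted p = 1.3e-05), Hdac1 and Gata3. The call for Gata3 was lost without LR mouse 3, LR mouse 4 or PBS mouse 7 (adjusted p from 0.0574 to 0.0626).

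A few genes stood above both neighbours and were picked after their values were seen. Itgb1, the integrin beta 1 chain that T cells use to bind matrix and vessel wall, ranged from 160 to 716 CPM with a median of 416 in members, from 141 to 393 with a median of 345 in Tcf7- Pdcd1+ cells and from 57.9 to 303 with a median of 153 in Tcf7+ Pdcd1- cells. The member samples overlapped both other ranges, and members were above the Tcf7- cells in 6 of 8 mice and above the Pdcd1- cells in 8 of 8. Itgb1 was higher by 0.53 ± 0.14 against the Tcf7- cells (adjusted p = 0.00683) and by 1.27 ± 0.10 against the Pdcd1- cells (adjusted p = 1.78e-17). Its level was not particular to the members. Over the 36 Tcf7+ Pdcd1+ cells left out of the gate for 3 or more Xcl1 UMIs it was 481 CPM. Members with 1, 2 and 3 or more Pdcd1 UMIs had 350, 726 and 489 CPM, all without a test. Brk1, a subunit of the WAVE complex that builds branched actin, was 199 ± 26.6 CPM in members against 137 ± 22.8 and 144 ± 6.41 CPM, and was above both in 8 of 8 mice (log2 ratios 0.56 and 0.34, adjusted p = 0.00432 and 0.0236). Hopx passed in both comparisons as well (log2 ratios 0.39 and 0.72, adjusted p = 0.0368 and 2.36e-06). Nfkb1 passed both narrowly (0.53 and 0.38, adjusted p = 0.0491 and 0.0424). Each was above the Tcf7- cells in 6 of 8 mice and above the Pdcd1- cells in 7 of 8. The chemokine receptor Cxcr3 was 261 ± 122 CPM in members, 179 ± 91.2 in Tcf7- and 109 ± 69.1 in Tcf7+ Pdcd1- cells, and passed against the Pdcd1- cells only (1.19, adjusted p = 1.03e-05; against the Tcf7- cells 0.57, adjusted p = 0.304).

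The members were not uniform. They were split by the number of Pdcd1 UMIs, which the gate used and which rises with depth (median depths of 3635.5, 3766 and 4726 UMIs for 1, 2 and 3 or more). Several naive genes and receptors ran over these steps away from the Tcf7+ Pdcd1- cells and toward the Tcf7- cells, while others did not. Members with 1 Pdcd1 UMI already differed from the Tcf7+ Pdcd1- cells. Values are CPM over all cells of a step with no test. Klf2 was 1339 CPM in members with 1 Pdcd1 UMI, 579 with 2 and 318 with 3 or more, between 2069 in Tcf7+ Pdcd1- cells and 223 in Tcf7- Pdcd1+ cells. Satb1 was 273, 85.1 and 73.9 CPM. The descent held for Lef1 as well, at 301, 199 and 107 CPM. Ccr7 (475, 108 and 293 CPM, against 90.1 in Tcf7- cells) and Dapl1 (172, 102 and 138 CPM, against 23.6) did not fall steadily.

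Some receptors and transcription factors ran the other way. Tigit was 128, 460 and 525 CPM over the same steps, Lag3 53.5, 114 and 183 CPM, and Tnfrsf9 34.2, 85.1 and 239 CPM. In Tcf7+ Pdcd1- cells these 3 genes stood lower, at 47.6, 12.7 and 19.9 CPM. Tox was 62.7, 73.8 and 138 CPM, Eomes 44.4, 125 and 148 CPM, and Irf8 9.11, 34.1 and 89.2 CPM. Slamf6 (71.8, 125 and 102 CPM) and Id3 (47.8, 73.8 and 79.0 CPM) did not fall with Pdcd1. Summed over cells, members with 3 or more Pdcd1 UMIs had the lowest Klf2 and Satb1 of the 3 steps. Their summed Slamf6 and Id3 were above the 31.5 and 4.50 CPM of Tcf7- cells that also held 3 or more Pdcd1 UMIs (163 cells). Whether the same members had both traits was not tested. Over the 6 mice with at least 5 such members Id3 ranged from 0 to 301 CPM with a median of 35.3, and Slamf6 from 85.2 to 151 with a median of 111. Effector genes stayed below the Tcf7- cells, and Gzmb and Prf1 did not rise steadily (83.2, 369 and 247 CPM, and 45.6, 39.7 and 45.9 CPM), while Cxcr6 was 194, 272 and 331 CPM against 862 in all Tcf7- cells. The 75 such members had Gzmb at 247 CPM and Prf1 at 45.9 CPM, against 892 and 255 CPM in those Tcf7- cells.

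**Figure D4:**
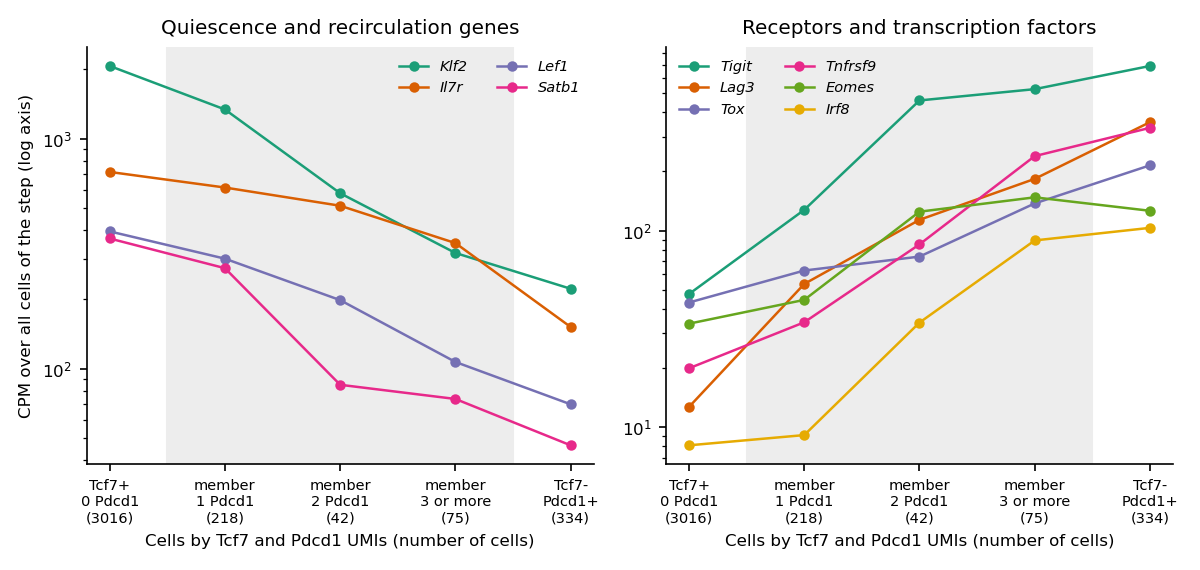
CPM over all cells of a step (y axis, log scale) for 4 naive and quiescence genes (left) and 6 receptor and transcription factor genes (right) in Tcf7+ cells with 0, 1, 2 and 3 or more Pdcd1 UMIs and in Tcf7- Pdcd1+ cells; grey marks the members and numbers in brackets count cells. Klf2 fell from 2069 to 318 CPM along the Tcf7+ steps while Tigit rose from 47.6 to 525 CPM; no error is drawn because cells of all mice were joined.

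At the edges of the gate, values are given once with no test. Members with 1 Tcf7 UMI had Lef1 at 191 CPM, Id3 at 37.1 and Gzmb at 268 CPM, and members with 3 or more had 277, 83.5 and 78.8 CPM, while cells just outside, with no Tcf7 UMI, had 70, 4.16 and 777 CPM. The 12 members at the Xcl1 limit of 2 UMIs had Id3 at 276 CPM and Klf2 at 188 CPM, and the 4 Tcf7+ cells just outside with 3 Xcl1 UMIs had 153 and 92.1 CPM. Another 62 cells met every other condition but held a Havcr2 UMI. These had Gzmb at 983 CPM, Lag3 at 315 CPM and Id3 at 5.00 CPM, at a median of 6095.5 UMIs.

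The series title points to a bacterial tryptophan catabolite, and the aryl hydrocarbon receptor (Ahr) is a known sensor of such compounds. Ahr was rare in members, at 29 UMIs over 335 cells, with 0 to 33.8 CPM per mouse and a median of 16.3. In Tcf7- Pdcd1+ cells it was 0 to 42.8 CPM with a median of 11.2, and in Tcf7+ Pdcd1- cells 12.4 to 27.3 with a median of 20.9, so the 3 ranges overlapped. Of 10 genes of the AhR list, 3 were tested against Tcf7- cells with none called, and 5 against Tcf7+ Pdcd1- cells with 2 lower, Tiparp (fell by 0.83, adjusted p = 0.0177) and Nfe2l2 (fell by 0.55, adjusted p = 0.0416). The call for Tiparp was lost without LR mouse 1 or PBS mouse 7 and that for Nfe2l2 without any of 4 mice (adjusted p up to 0.283). Crem, a cyclic AMP responsive factor, was 49.2 ± 24.5 CPM in members and rose by 0.90 ± 0.24 against Tcf7+ Pdcd1- cells, in 8 of 8 mice.

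Receptor segments gave a readout the gate did not use. Of 184 members in which a leading alpha and beta V segment could be read, 26 (14.1%) carried a pair also seen in Tcf7- Pdcd1+ cells of the same mouse, against 46 of 1597 Tcf7+ Pdcd1- cells (2.88%). The share ranged over mice from 2.63 to 40.0% in members and from 0 to 6.80% in Tcf7+ Pdcd1- cells, and was higher in members in 7 of 8 mice. The exception was PBS mouse 9, with 1 of 38 members and 12 of 356 Tcf7+ Pdcd1- cells. LR mice 1 and 2 and PBS mouse 6 gave 6, 8 and 6 of the 26 members with such a pair, and each other mouse gave 1 or 2. In PBS mouse 7 the shares were 3.13% of members and 2.49% of Tcf7+ Pdcd1- cells. A pair of V segments is not a clonotype, and these values are a description with no test.

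The study's own comparison, LR against PBS, found no called gene in the members. In edgeR's quasi-likelihood test 0 of 2305 genes passed (0.0%), and DESeq2 called 1, Tigit. In the edgeR fit 112 of the 2305 genes had an unadjusted p under 0.05, about as many as chance alone gives at that threshold. Tigit was 365, 331, 685 and 422 CPM in the members of LR mice 1 to 4 and 225, 123, 239 and 220 CPM in those of PBS mice 6 to 9. The groups did not overlap, but how many of the 2305 genes separate in this way was not counted, so no weight is put on it. The log2 ratio of 1.15 ± 0.24 missed the adjusted threshold (edgeR, unadjusted p = 9.7e-05, adjusted p = 0.224). Tigit passed over genes with at least 10 UMIs in all (1.09, adjusted p = 0.0179) and without LR mouse 2 (1.29, adjusted p = 0.0316). Only 3 of 17 alternatives called Tigit, DESeq2 being among them. Over all 17 the log2 ratio ran from 0.67 to 1.30. The adjusted p reached 0.926 with a mouse left out and 0.997 over all alternatives (edgeR or DESeq2). Tigit was picked here for its p.

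Tox stood at 85.9, 165, 103 and 144 CPM in LR members and 117, 74.3, 42.9 and 47.9 CPM in PBS members, which overlapped (log2 ratio 0.90 ± 0.31, unadjusted p = 0.00805, adjusted p = 0.96). Lag3 (0.66 ± 0.43), Gzmb (0.14 ± 0.47) and Ifng (-0.11 ± 0.40) had adjusted p of 0.985 or above. Klf2 in the members was 801 ± 310 CPM in LR mice and 1028 ± 379 CPM in PBS mice (n = 4 each) and was not called. Slamf6 gave a log2 ratio of 0.06 ± 0.28 (adjusted p = 1), and Id3 and Ahr were too sparse for the filter.

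Whether the treatment difference itself differed between members and Tcf7- Pdcd1+ cells was tested as an interaction, in which 1 of 2430 genes was higher (0.0412%) and 1 lower (0.0412%), together 0.0823%. For Klf2 the LR to PBS ratio was 1.19 ± 0.24 higher in members on the log2 scale (adjusted p = 0.0158). In Tcf7- cells Klf2 stood at 133 ± 43.1 CPM in LR mice, from 88.1 to 179, and 405 ± 160 CPM in PBS mice, from 280 to 618. The call was lost without LR mouse 1 or 4 or PBS mouse 6 or 7 (adjusted p from 0.0806 to 0.276), without Scrublet-marked cells (adjusted p = 0.401), without cells holding other-type markers (0.0754), with 2 or more Tcf7 UMIs (0.678), after thinning before the gate (0.994) and by DESeq2 (0.29). With 2 or more Pdcd1 UMIs it turned to -0.28 (adjusted p = 0.999), and 7 of 17 alternatives kept the call. For Lars2, a mitochondrial leucyl-tRNA synthetase, the ratio was lower in members by 1.39 (log2 difference -1.39 ± 0.25, adjusted p = 0.0027), with 277 ± 41.3 and 404 ± 146 CPM in LR and PBS members and 569 ± 239 and 315 ± 45.5 CPM in LR and PBS Tcf7- cells. That call was lost without LR mouse 1 or 2 (adjusted p of 0.12 and 0.107), with 2 or more Pdcd1 UMIs (0.593) and by DESeq2 (0.29).

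The share of members among all Pdcd1+ CD8 cells of the gate was 52.3, 44.3, 41.7 and 23.4% in LR mice and 40.0, 77.1, 54.1 and 56.1% in PBS mice. The means of 40.4 ± 12.2% and 56.8 ± 15.3% (n = 4 each) did not differ beyond the spread over mice (two-sided exact permutation test, p = 0.171, smallest possible 0.0286). As a share of all CD8 cells, members made up 5.18 ± 1.07% in LR and 5.65 ± 1.22% in PBS mice (exact p = 0.514). Members with 2 or more Pdcd1 UMIs were 43.9, 42.9, 53.3 and 38.9% of members in LR mice and 37.5, 14.8, 25.0 and 38.0% in PBS mice, which did not overlap (44.7 ± 6.12% and 28.8 ± 11.1%, exact p = 0.0286, the smallest possible, adjusted p = 0.114 over the 4 shares compared). This share was chosen after its values were seen. Thinned to 2000 UMIs it was 23.9 ± 12% in LR and 10.9 ± 6.54% in PBS mice (exact p = 0.114), and the mice then overlapped.

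**Figure D5:**
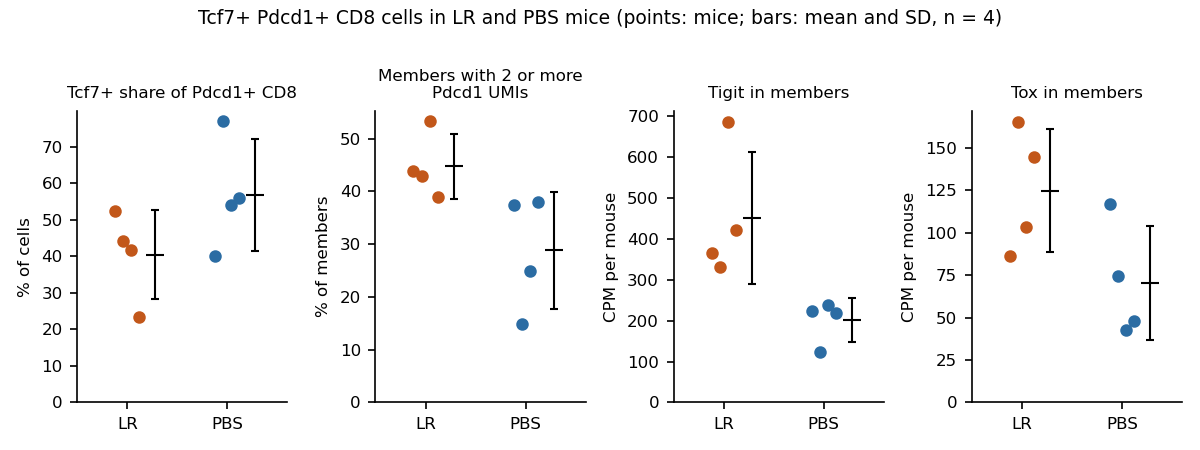
Members in the 4 LR and 4 PBS mice: their share of Pdcd1+ CD8 cells of the gate, the share of members with 2 or more Pdcd1 UMIs (both %), and Tigit and Tox in members (CPM), with points for mice and bars for mean and SD. Tigit, picked for its p, and the share with 2 or more Pdcd1 UMIs, chosen after its values were seen, did not overlap between groups. The first panel and Tox overlapped.

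Transcripts of other cell types were looked for in the members. Of 6 B cell markers 4 were at 0 in members, Cd79a, Ms4a1 and Ebf1 among them, and the list gave UMIs in 119 members (55.6 to 156 CPM summed per mouse), in 63 Tcf7- Pdcd1+ cells (13.5 to 177 CPM) and in 1227 Tcf7+ Pdcd1- cells (92.4 to 214 CPM). Ighm itself was higher in members than in Tcf7- cells (log2 ratio 0.78, adjusted p = 0.00709; 0.0545 without PBS mouse 9). Of 8 myeloid markers Csf1r was at 0, and the list summed to 14.1 to 189 CPM per mouse in members, 0 to 138 in Tcf7- cells and 11.2 to 52.6 in Tcf7+ Pdcd1- cells. Of 6 NK markers Ncr1, Klra8 and Klra4 were at 0, and the list summed to 0 to 127 CPM in members and 17.7 to 340 CPM in Tcf7- cells. Gamma-delta T cell markers gave a UMI in 11 members and 35 Tcf7- cells, with Trdv4 at 0 in both, and 5 of 6 melanoma markers were at 0 in members. Of 4 tested regulatory T cell markers, all 4 were higher in members than in Tcf7+ Pdcd1- cells (Ikzf2, Tnfrsf4, Capg and Ctla4, median log2 ratio 1.63) and 2, Capg and Ctla4, were lower than in Tcf7- cells, with Foxp3 at 0 in each cell by the gate. Cd74, the invariant chain of antigen-presenting cells, was 621 CPM over members with 1 Tcf7 UMI, where mice ranged from 0 to 5954 with a median of 79.2, against 38.3 and 26.3 CPM in members with 2 and with 3 or more, 254 CPM in Tcf7- cells and 10.5 CPM in Tcf7+ Pdcd1- cells. The part of these cells in the differences was not tested beyond the counts that follow. Without cells holding a UMI of 15 specific B cell, myeloid or melanoma markers, 236 genes were higher and 196 lower than in Tcf7- cells, and 311 higher and 308 lower than in Tcf7+ Pdcd1- cells. Without Scrublet-marked cells the counts were 219 and 171, and 304 and 330.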

How the data were processed

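The authors deposited raw UMI counts for 32285 genes and 9 hashtags in 16969 barcodes, written by Cell Ranger 4.0.0 on GRCm38 per the submitters' processing notes; the annotation release is not given in the sources used here. Of these barcodes, 14474 showed 500 or more genes with mitochondrial UMIs no higher than 10%, and they were assigned to a mouse if 1 hashtag held at least 80% of hashtag UMIs (10713 cells, median 3341 UMIs). Doublets of cells from the same mouse were not removed, and Scrublet (expected rate 0.1) served as an alternative. UMIs were summed per mouse and population and tested with edgeR 4.0.16 (R 4.3.3; TMM, filterByExpr, robust quasi-likelihood), with mouse as a block between populations because each mouse gave both. The standard error is the log2 ratio divided by the square root of F. DESeq2 1.42.0, other scalings, filters, thresholds, thinning, depth matching and left-out mice were alternatives. The scripts were checked on simulated data.

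The members and the gene lists were chosen with earlier results of these data known. Named genes were 19 always included, up to 2 called genes per list with the largest absolute log2 ratio and a UMI in at least 5% of cells, 5 called genes at each end outside the lists, and any gene called between LR and PBS. Other genes that are named as list members, as markers or for their pattern were chosen after their values were seen. The hashtag counts were read from the gene expression matrix, and 1 of the 9 hashtags, that of LR mouse 5, was carried by 0 cells. Some genes are not reported here, although they remain in the fits and in the counts.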

Additional observations from a re-analysis of the deposited data

Results flagged for a closer look

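Within the Tcf7+ Pdcd1+ cells, 1 mouse lay far from the other 3 of its group for 2 genes. Id3 was 155.149 CPM in LR mouse 3, which gave 15 members, against 11.1 to 30.1 CPM in the other LR mice. Tigit was 122.566 CPM in PBS mouse 7 against 220 to 239 CPM in the other PBS mice. In each case the gap to the nearest mouse was a larger share of the group's range than Dixon's 95% critical value. Of 44 groups of 4 mice examined 2 stood out in this way, and chance gives about 1 in 20.

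The LR to PBS ratio differed between Tcf7+ and Tcf7- Pdcd1+ cells for 2 genes by the interaction test. The log2 difference was 1.1871 for Klf2 and -1.3936 for Lars2.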

How the results depend on the processing

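Among log2 ratios of named genes, 1019 of 1119 values under alternatives kept direction and call against Tcf7- cells, 97 lost the call and 3 reversed; against Tcf7+ Pdcd1- cells the numbers were 1027 of 1147, 115 and 3, with 2 newly called. Genes higher and lower than in Tcf7- cells (236 and 187) became 149 and 105 by DESeq2 and 74 and 54 with 2 or more Pdcd1 UMIs. Thinning before the gate gave 144 higher. With a 95% hashtag share, which also asked for at least 20 hashtag UMIs, they were 55 and 55 (2 units, most mice pooled). That setting kept 4, 3 and 1 members in LR mice 1, 2 and 4 and none in LR mouse 3. It kept 1, 15, 26 and 22 in PBS mice 6, 7, 8 and 9, so it removed more of the LR members. Against Tcf7+ Pdcd1- cells (373 and 352), library totals gave 584 higher, a filter of 10 UMIs 583 lower, the 95% hashtag share 51 and 56, 2 or more Tcf7 UMIs 149 and 183, thinning 102 and 139, and depth-matched cells 150 and 184. Fewer cells or genes entered most of these fits. With no replicate block the calls were 214 and 159, and 301 and 264.

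LR against PBS in members gave 1 gene higher with the filter of 10 UMIs and 1 by DESeq2; leaving out 1 mouse gave 0 to 1 higher and 0 to 1 lower. The interaction gave 3 higher and 2 lower with the filter of 10 UMIs, 0 and 0 by DESeq2 and with 2 or more Pdcd1 UMIs, 0 higher with 2 or more Tcf7 UMIs, without Scrublet-marked cells and without cells holding other-type markers (chosen after seeing the data), and 0 to 3 higher and 0 to 1 lower with a mouse left out. At equal depth, 9 of 19 genes passed at 1000 UMIs, and 9 to 12 with a mouse left out, lowest without LR mouse 1 or PBS mouse 8. The share of members among Pdcd1+ CD8 cells stayed lower in LR mice, by 22.0 to 9.64 points with a mouse left out and never at p of 0.05 or less by the exact test. The 95% hashtag share could not be fitted for LR against PBS, the interaction or the share.

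Reversed log2 ratios were, against Tcf7- cells, Tubb5 (-0.055) and Tuba1b (-0.1798) thinned before the gate and Icos (0.287) with 2 or more Pdcd1 UMIs. Against Tcf7+ Pdcd1- cells they were Hmgb2 (-0.0006, 95% hashtag share), Slamf6 (0.0038, 2 or more Pdcd1 UMIs) and Ltb (0.0106, depth-matched). For LR against PBS, Gzmb was -0.6818 and -0.2821 with 2 or more Pdcd1 or Tcf7 UMIs, -0.3935 thinned, -0.004 without other-type marker cells and -0.088 to 0.378 with a mouse left out; Ifng was 0.005 without Scrublet-marked cells and -0.792 to 0.1088 with a mouse left out. The Klf2 interaction was -0.2791 with 2 or more Pdcd1 UMIs. At equal depth, in points, Cxcr5 was -0.5225 at 1000 UMIs and -0.0945 without Scrublet-marked cells, and Ahr -0.1253 at 1000 UMIs; with a mouse left out Cxcr5 ranged from -0.261 to 0.6831, Icos from -3.819 to 1.079, Ahr from -0.748 to 1.2683 and Crem from -0.0329 to 3.3876. The causes were not tested. With 15 members in LR mouse 3 and 16 Tcf7- cells in PBS mouse 7, depth limits sparse genes such as Id3, Cxcr5 and Ahr.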
